A study of Homo sapiens with 24 samples.

Results

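The dual-specificity phosphatases that switch off MAP kinases were followed at the RNA level in 2 B-cell lymphoma lines exposed to a SYK inhibitor, a BET inhibitor or both. The 9 transcripts, DUSP1, DUSP2, DUSP4, DUSP5, DUSP6, DUSP7, DUSP8, DUSP10 and DUSP16, were chosen by gene symbol out of 25161 symbols in the table, with earlier results of the same arrays known. The highest mean over the 24 arrays was to decide where a symbol had several rows, but each of the 9 had 1 row. The rule used no measured change.

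MAP kinases are activated when a threonine and a tyrosine of their activation loop are phosphorylated, and the dual-specificity MAP kinase phosphatases remove both phosphates. DUSP1, DUSP2, DUSP4 and DUSP5 are nuclear enzymes whose genes are induced early after receptor signalling, so that they act as negative feedback. DUSP6 and DUSP7 are cytoplasmic and prefer ERK, while DUSP8, DUSP10 and DUSP16 prefer the stress kinases JNK and p38. In B cells the antigen receptor reaches ERK through SYK, RAS and RAF, and BET proteins hold transcription complexes at acetylated chromatin of many inducible genes.

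SU-DHL-4, an established diffuse large B-cell lymphoma (DLBCL) line, and DG-75, an established Burkitt lymphoma line, were cultured for 72 h with DMSO as solvent control, with the SYK inhibitor Entospletinib at 1 µM (Ento), with the bivalent BET inhibitor AZD5153 at 0.01 µM (AZD) or with both at those doses (Ento+AZD). No genetic change was made by the study, DMSO was the common control within a line, and each lymphoma type was represented by 1 line. RNA of 3 biological replicates per group, numbered 1 to 3 in the labels, was measured on 24 Clariom D whole-transcriptome arrays. The RNA came from whole cultures, where fewer cells of a kind and less RNA per cell cannot be told apart.

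The 5 B-cell markers MS4A1, CD79A, CD79B, PAX5 and CD22 stood above the median of every array, and none of 4 T-cell markers did. MS4A1 (4.45), CD79B (1.16) and CD22 (1.29) were called higher in untreated SU-DHL-4 than in untreated DG-75, where 7.2% of all rows were called. In DG-75, 4 of the 5 were higher at an unadjusted p under 0.05 under AZD, beside 13.8% of all rows in either direction, and CD79B was called under Ento+AZD (1.03, adjusted p = 0.0227), beside 0.833% of all rows. Their part in the DUSP results was not tested. Of the monocyte and macrophage markers 1 of 4 and of the fibroblast markers 2 of 3 lay above the median in every group. Those above it were CSF1R, with group means of 5.49 to 5.72, COL1A1 (5.76 to 5.98) and COL1A2 (7.05 to 7.21). CD14, LYZ, CD163 and PDGFRB were not above it on every array, with group means of 4.54 to 5.19, 2.32 to 2.88, 4.14 to 4.67 and 4.05 to 4.39. Array medians lay between 4.89 and 5.14 on the log2 scale, and the correlation between arrays of 1 group was 0.981 to 0.992 over all rows. The number of arrays, 3 per group, limits the precision. A change was called at a Benjamini-Hochberg adjusted p under 0.05 over all 25575 rows in limma together with an absolute log2 change above 1, that is more than 2-fold.

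RefSeq (GRCh38.p14) gave an upstream window for 7 of the 9 genes, all but DUSP4 and DUSP5. The 250 bases before the start site are shown for the genes that carry the main results, DUSP1 for its response to AZD and DUSP10 for its difference between the lines. Capitals mark matches on either strand to TGACGTCA (the cyclic AMP response element), CACGTG (the E-box) and TATAAA (the TATA box). TGANTCA (the AP-1 site) and the CArG box were searched as well, and no 2 of the matches overlapped.
DUSP1, chr5:172771196-172771445, minus strand: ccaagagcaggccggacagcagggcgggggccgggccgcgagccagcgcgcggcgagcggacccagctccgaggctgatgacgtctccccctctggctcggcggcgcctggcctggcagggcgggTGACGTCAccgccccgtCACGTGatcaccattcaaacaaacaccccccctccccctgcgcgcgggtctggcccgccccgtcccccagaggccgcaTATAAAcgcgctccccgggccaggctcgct
DUSP10, upstream of the first listed start, chr1:221742090-221742339, minus strand: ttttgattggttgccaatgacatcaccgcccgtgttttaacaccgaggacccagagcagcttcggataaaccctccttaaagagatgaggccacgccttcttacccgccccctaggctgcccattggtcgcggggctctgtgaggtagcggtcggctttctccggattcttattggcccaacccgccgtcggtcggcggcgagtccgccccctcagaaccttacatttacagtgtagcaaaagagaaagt
In DUSP1, the letters of a cyclic AMP response element lay 125 to 118 bases before the start, an E-box 108 to 103 bases and a TATA box 30 to 25 bases before it. The DUSP10 window held none of these letters. Among all 35116 listed windows of this length, 1.65% held TGACGTCA, 6.34% CACGTG, 10.7% TATAAA, 6.57% TGANTCA and 1.16% a CArG box. Of the other members, the DUSP8 window held TGACGTCA at 2 positions and the DUSP2 window held CACGTG once. These matches describe the letters and do not show binding.

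Of the 9 transcripts, 4 had a mean over the 24 arrays at or above the median of all rows, 5.05. These were DUSP1 (6.23), DUSP2 (7.12), DUSP7 (5.77) and DUSP10 (6.02). The 5 below it were DUSP4 (4.47), DUSP5 (4.11), DUSP6 (3.69), DUSP8 (4.93) and DUSP16 (3.92). Low log2 values could not be separated into expressed and not expressed, because no detection value was used here. Probes of different genes respond differently, so these levels do not rank the phosphatases against each other.

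DUSP1 was the 1 member called under a drug. DUSP1 dephosphorylates p38, JNK and ERK in the nucleus and is one of the classical immediate early genes. In SU-DHL-4 its log2 level under DMSO was 7.39, 6.09 and 7.41 in replicates 1, 2 and 3. Under AZD it was 6.14, 4.76 and 6.23, and under Ento+AZD 6.70, 4.69 and 6.32. Replicate 2 was the lowest array of each of these groups, so that the AZD and Ento+AZD arrays numbered 1 and 3 lay above the DMSO array numbered 2 and the groups overlapped. Within each replicate number, however, the AZD array lay below the DMSO array, with differences of -1.25, -1.33 and -1.18.

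With the replicate number in the model, DUSP1 fell under AZD in SU-DHL-4 by 1.25 on the log2 scale (SE 0.198, 95% confidence interval -1.68 to -0.82, adjusted p = 0.0341), a ratio of 0.420 to DMSO. It was the 1 member called among 9, where 0.18% of all rows were called. The call ended in limma without the replicate number (SE 0.633, adjusted p = 0.559), in a fit of the DMSO and AZD arrays alone (adjusted p = 0.0688), after quantile normalization (-1.10, adjusted p = 0.0677) and after subtraction of array medians (-1.13, adjusted p = 0.0584). It also ended without any 1 of the DMSO or Ento+AZD arrays, without AZD replicate 1 or 3 and without any 1 replicate number, with changes of -1.39 to -1.08 and adjusted p of 0.0574 to 0.55.

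Under Ento+AZD DUSP1 fell in SU-DHL-4 by 1.06 (SE 0.198, adjusted p = 0.0172), again as the 1 member called, against 1.19% of all rows. The differences from DMSO within replicates 1, 2 and 3 were -0.70, -1.40 and -1.09. The call ended without the replicate number (adjusted p = 0.548) and under both other scalings, where the change was -0.97 and -0.93 and so under the fold minimum, with adjusted p of 0.0123 and 0.0218. It also ended without replicate 2 or 3 of the DMSO or of the Ento+AZD arrays and without either whole number, with changes of -1.09 to -0.89 and adjusted p of 0.0664 to 0.225.

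Ento alone gave DUSP1 levels of 7.62, 5.23 and 7.31 in SU-DHL-4, a change of -0.24 (95% confidence interval -0.67 to 0.19, adjusted p = 0.779). Replicate 1 was 0.23 above its DMSO array and replicate 2 0.86 below it (-0.86), so that the numbers did not share a direction. Addition of AZD to Ento changed DUSP1 by -0.82 (SE 0.198, adjusted p = 0.131) and addition of Ento to AZD by 0.19 (95% confidence interval -0.24 to 0.62, adjusted p = 0.897), and neither was called. Ento, AZD and Ento+AZD were compared with the same DMSO arrays, so these 3 changes are not independent of each other.

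**Figure D1:**
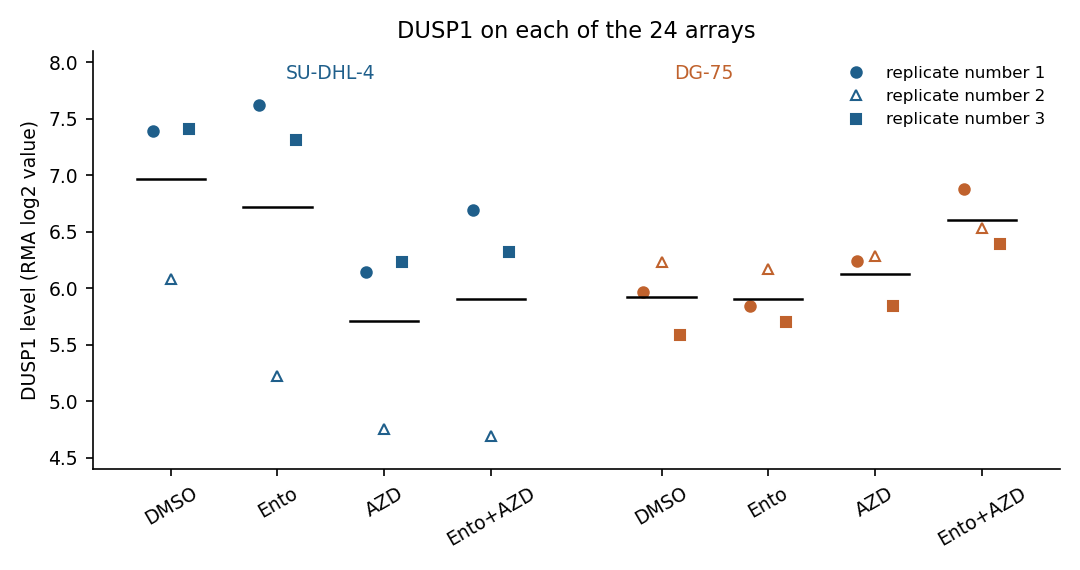
DUSP1 level (RMA log2 value, y axis) on each of the 24 arrays in the 8 groups (x axis), with symbols for the replicate number, open triangles for number 2, and black lines for group means. In SU-DHL-4 the arrays numbered 2 lie lowest in all 4 groups, and within each number the AZD and Ento+AZD arrays lie below DMSO, while the 3 DG-75 Ento+AZD arrays, 6.40 to 6.87, lie above the DG-75 DMSO arrays.

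In DG-75 DUSP1 stood at 5.96, 6.23 and 5.58 under DMSO, at 5.84, 6.17 and 5.70 under Ento and at 6.24, 6.28 and 5.84 under AZD. Under Ento+AZD it stood at 6.87, 6.53 and 6.40, higher than on each DMSO, Ento and AZD array of the line. The difference from DMSO was 0.67 (SE 0.151, adjusted p = 0.0437), or 1.60-fold, and that from Ento 0.69 (adjusted p = 0.047). Both passed the adjusted p but not the fold minimum, so that 0 of 9 members were called in either comparison, against 0.833% and 0.657% of all rows. The change under AZD alone was 0.20 (95% confidence interval -0.13 to 0.53) and under Ento alone -0.02 (-0.35 to 0.31), with adjusted p of 0.638 and 1.00 in limma. Ento+AZD exceeded AZD by 0.48 (unadjusted p = 0.00882, adjusted p = 1.00).

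The response of DUSP1 to Ento+AZD therefore ran in opposite directions in the lines, and this difference was tested itself. The change in SU-DHL-4 less that in DG-75 was -1.74 (SE 0.253, 95% confidence interval -2.27 to -1.20, adjusted p = 0.0126), the third smallest p of all rows. Among all rows 9, or 0.0352%, were called in this comparison. The call ended without the replicate number (SE 0.738, adjusted p = 0.856). It also ended without SU-DHL-4 Ento+AZD replicate 2 or 3, without DG-75 DMSO replicate 1 or 3, without DG-75 Ento+AZD replicate 1 and without any 1 replicate number, with differences of -1.80 to -1.61 and adjusted p of 0.0509 to 0.395.

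Under AZD alone the difference between the lines was -1.45 for DUSP1 (SE 0.253, adjusted p = 0.174). Its unadjusted p of 2.04e-05 was also the third smallest of all rows, but limma called 0 of 9 members and 0% of all rows there, with 1576 rows and 1 member at an unadjusted p under 0.05. Under Ento alone the difference was -0.22 (95% confidence interval -0.75 to 0.31), and 0 of 9 members were called against 0.00782% of all rows, with 1134 rows and 0 members at an unadjusted p under 0.05. Each lymphoma type was 1 line, and a batch in which all arrays of a line were processed together cannot be told apart from the line.

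In SU-DHL-4 the level of DUSP1 also differed between the replicate numbers, by more than under either drug. Averaged over the 4 treatments, its level was 6.96 in number 1, 5.19 in number 2 and 6.82 in number 3. Number 2 minus the mean of numbers 1 and 3 was -1.70, and limma's F test over the 3 numbers gave an adjusted p of 0.00158. DUSP1 ranked number 4 of 25575 rows in that test, which called 98 rows or 0.383%. That count of rows was not stable, at 11 to 234 with 1 SU-DHL-4 array left out and 156 to 587 in the other settings. DUSP1 was called in each of these fits. No other member was called in it, and the smallest p among them was that of DUSP10 (adjusted p = 0.171), whose mean in number 2 was higher by 0.57. In DG-75 the same test called 0% of rows and 0 members, with DUSP1 at 6.23, 6.31 and 5.88 (unadjusted p = 0.0167, adjusted p = 0.637). This test was added after the DUSP1 values had been seen. What the numbers stand for beyond biological replicates is not given in the sources used here.

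JUN, a subunit of the AP-1 transcription factor that JNK activates, had the pattern most like that of DUSP1. Over the 24 arrays, each line centred on its own mean, the 2 rows correlated at r = 0.891, with 0.958 in SU-DHL-4 against 0.594 in DG-75 over 12 arrays each. MIR616 (r = 0.867, with 0.924 in SU-DHL-4 against 0.545 in DG-75) and the CDK inhibitor CDKN1B (r = 0.856, with 0.926 in SU-DHL-4 but 0.240 in DG-75) came next. The arrays share treatments and replicate numbers, which enter these correlations, and they are given as a description. JUN stood at 6.73, 4.85 and 6.31 under DMSO and at 5.88, 3.55 and 5.34 under AZD in SU-DHL-4, a change of -1.04 (SE 0.155, adjusted p = 0.0325) that was called. Under Ento+AZD the JUN change in SU-DHL-4 was -0.90 (adjusted p = 0.0121), under the fold minimum, that in DG-75 was 0.98 (SE 0.299, adjusted p = 0.125), and the line difference was -1.87 (adjusted p = 0.0776). In the test of the replicate number in SU-DHL-4, JUN ranked number 1, MIR616 number 2 and CDKN1B number 5. For each of them replicate number 2 lay below the mean of the other numbers (-1.84, -2.26 and -1.42). Of the 98 rows called there with all arrays of the line, 75 were lower and 23 higher in number 2. This split was not counted with 1 array left out, where the total lay between 11 and 234.

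**Figure D2:**
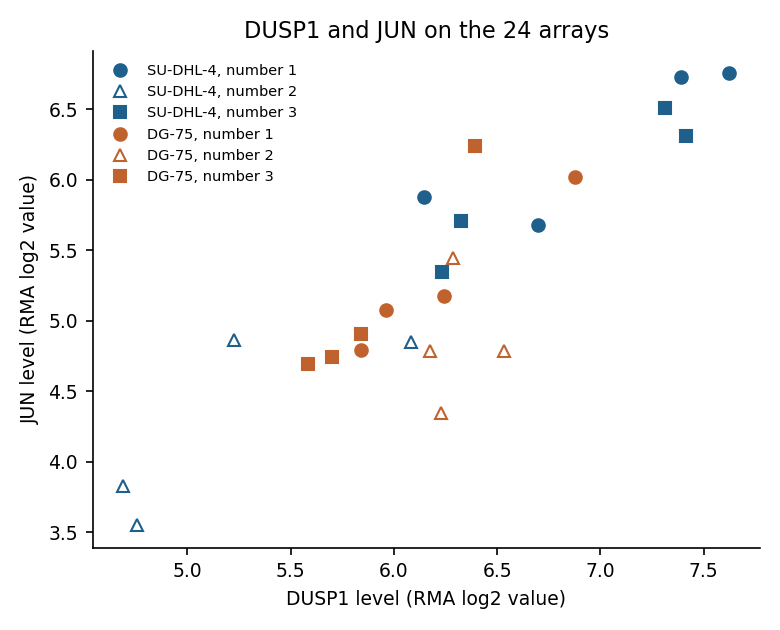
JUN level against DUSP1 level (both RMA log2 values) on the 24 arrays, with colours for the line and symbols for the replicate number. The SU-DHL-4 arrays numbered 2 (open blue triangles) have the lowest JUN levels of that line, from 3.55 to 4.86, and the correlation with each line centred on its mean is 0.891.

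The other inducible nuclear phosphatases, DUSP2, DUSP4 and DUSP5, were not called in any comparison. DUSP2, which is induced in activated lymphocytes, lay between 6.79 and 7.38 on all 24 arrays. In SU-DHL-4 its change was -0.31 under AZD (95% confidence interval -0.64 to 0.02) and -0.30 under Ento+AZD (-0.63 to 0.03), with all 3 numbers lower than DMSO in both. DUSP4, which acts on ERK and JNK, stood at 4.34, 4.19 and 4.36 under AZD and at 4.65, 4.53 and 4.71 under DMSO in SU-DHL-4. These groups did not overlap, and the change was -0.33 (95% confidence interval -0.68 to 0.01, adjusted p = 0.456).

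In DG-75 DUSP4 was at 4.26, 4.33 and 4.27 under AZD, all below the 3 DMSO arrays at 4.45, 4.80 and 4.51, and the change was -0.30 (adjusted p = 0.472). Under Ento+AZD it was at 4.81, 4.79 and 4.52, above the AZD arrays by 0.42 (unadjusted p = 0.0272, adjusted p = 1.00). DUSP5, an ERK-specific nuclear phosphatase, changed by 0.37 under AZD in SU-DHL-4 (95% confidence interval -0.14 to 0.87) and by 0.31 in DG-75 (-0.06 to 0.67). Its SU-DHL-4 AZD arrays ranged from 3.88 to 4.78, wider than the change.

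The ERK-selective cytoplasmic enzymes DUSP6 and DUSP7 were lower under Ento+AZD in DG-75 without passing the threshold. Both had an unadjusted p under 0.05 in limma there, as did 16% of all rows in either direction. The DUSP6 group means in DG-75, 3.39 to 3.78, lay within the range of the T-cell markers. DUSP6, whose transcription follows ERK activity in many cells, changed there by -0.40 (95% confidence interval -0.74 to -0.05, adjusted p = 0.242), with all 3 numbers lower than DMSO. DUSP7 stood at 5.94, 5.45 and 5.71 under DMSO and at 5.44, 5.06 and 5.34 under Ento+AZD in DG-75. These groups did not overlap, and the change was -0.42 (SE 0.144, unadjusted p = 0.0139, adjusted p = 0.171). Against Ento the DUSP7 change was -0.50 (adjusted p = 0.118). In SU-DHL-4 DUSP7 changed by -0.45 under AZD (95% confidence interval -0.91 to 0.02) and by -0.27 under Ento+AZD (-0.73 to 0.19). DUSP6 in SU-DHL-4 ranged from 2.98 on an AZD array to 4.29 on an Ento+AZD array.

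The rows most like DUSP7 over the line-centred arrays were RAD23B (r = 0.898), CABLES2 (0.887) and MRPS15 (0.882), each correlated above 0.86 in both lines. Those most like DUSP5 were FAM151B (0.735), FAM222B (0.726) and OR2H1 (0.713). Among the members themselves the highest correlations were 0.629 between DUSP1 and DUSP4, 0.516 between DUSP2 and DUSP6 and 0.506 between DUSP2 and DUSP7. The lowest was -0.535 between DUSP1 and DUSP10. These values rest on the same 24 arrays and carry no test.

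**Figure D3:**
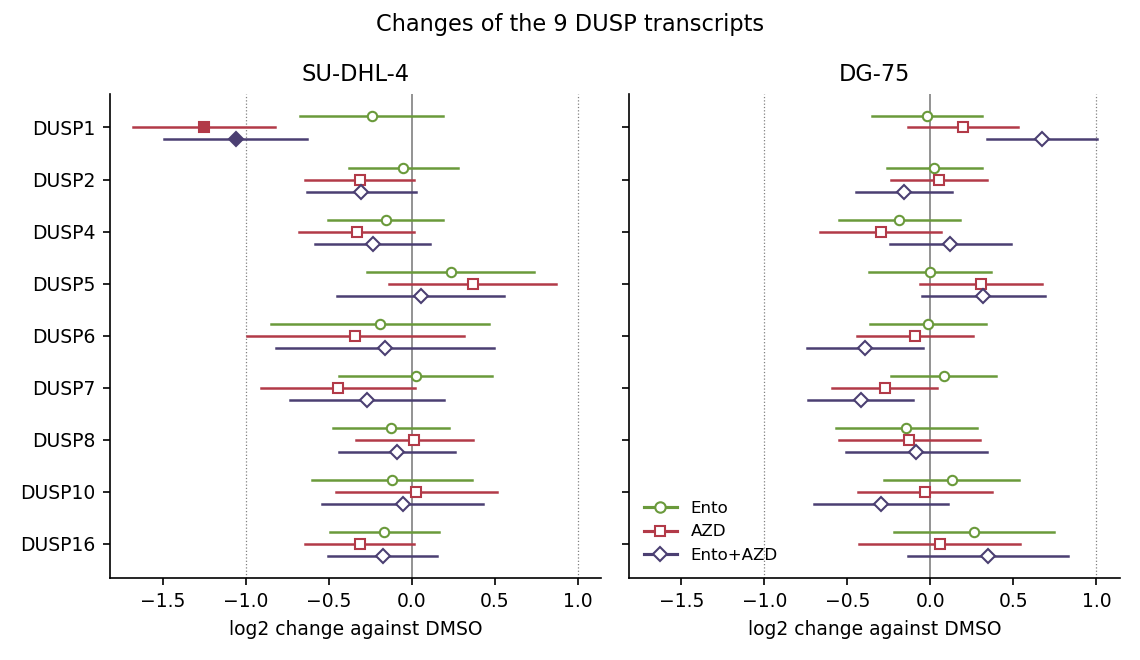
Log2 change against DMSO (x axis) of the 9 transcripts under Ento, AZD and Ento+AZD in SU-DHL-4 (left) and DG-75 (right), with 95% confidence intervals as lines, filled symbols for called changes and dotted lines at the fold minimum. DUSP1 under AZD (-1.25) and Ento+AZD (-1.06) in SU-DHL-4 are the 2 filled symbols.

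DUSP10, which prefers JNK and p38, differed between the untreated lines. It stood at 5.11, 5.44 and 5.12 in SU-DHL-4 and at 6.83, 6.63 and 7.24 in DG-75. Each SU-DHL-4 array lay below each DG-75 array, and the difference was -1.68 (SE 0.312, 95% confidence interval -2.33 to -1.03, adjusted p = 0.00033), a ratio of 0.312 of the SU-DHL-4 to the DG-75 level. DUSP10 was the 1 member called in this comparison, where 7.2% of all rows were called, so that 1 of 9 is near the share of all rows. The call held in all 27 fits with arrays left out and in the 7 other settings, with differences of -1.93 to -1.46.

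Under the drugs DUSP10 kept this order between the lines. Under Ento, AZD and Ento+AZD its group means were 5.10, 5.25 and 5.17 in SU-DHL-4 and 7.03, 6.87 and 6.60 in DG-75. All 12 SU-DHL-4 arrays, 4.23 to 5.68, lay below all 12 DG-75 arrays, 6.15 to 7.41. Within a line the neighbouring means did not differ beyond the spread of their arrays, and the widest DUSP10 change was -0.43 between Ento+AZD and Ento in DG-75 (unadjusted p = 0.0414, adjusted p = 0.309).

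DUSP8 and DUSP16 were not called between the untreated lines, with differences of 0.03 (95% confidence interval -0.33 to 0.39) and 0.23 (-0.18 to 0.65). DUSP8 group means spanned 0.19 on the log2 scale over the 8 groups, the narrowest span of the 9 members. DUSP16 changed most under Ento+AZD in DG-75, by 0.35 (95% confidence interval -0.13 to 0.83), and its DMSO arrays there ranged from 3.18 to 4.26.

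No other member was called between the untreated lines. DUSP7 was higher in SU-DHL-4 by 0.47 with no overlap of the arrays (adjusted p = 0.0966). DUSP1 was higher in SU-DHL-4 by 1.04 (SE 0.522, adjusted p = 0.205), with overlap through SU-DHL-4 replicate 2. The difference was called with number 2 left out of both lines (1.63, adjusted p = 0.000118) and in a fit of the 6 DMSO arrays alone (adjusted p = 0.0493). It was not called with either other number left out of both lines. DUSP2, DUSP4, DUSP5 and DUSP6 differed by 0.04 to 0.28.

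**Figure D4:**
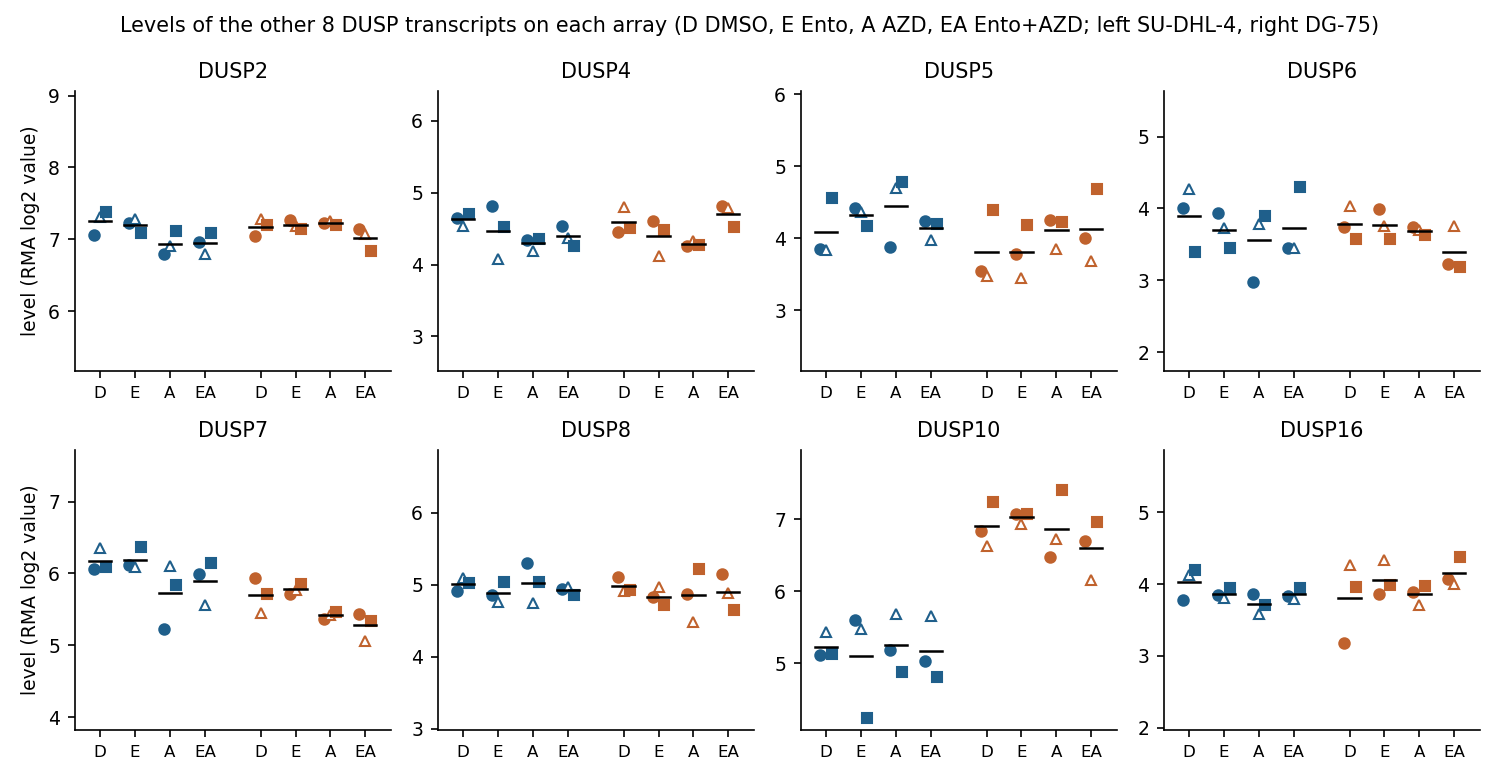
Levels (RMA log2 value, y axis, the same span in every panel) of the other 8 transcripts on each array, SU-DHL-4 left and DG-75 right in each panel, with black lines for group means and open triangles for replicate number 2. DUSP10 is the panel in which the lines separate, at 4.23 to 5.68 against 6.15 to 7.41.

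In the other comparisons against DMSO or a single agent no member was called. Ento against DMSO called 0 of 9 members in either line, against 0.0508% of all rows in SU-DHL-4 against 0.00391% in DG-75, and no member had an unadjusted p under 0.05 there, with 2196 and 718 rows below it. AZD against DMSO in DG-75 called 0 members against 0.18% of all rows, with 0 members and 3537 rows at an unadjusted p under 0.05. In SU-DHL-4, Ento+AZD against Ento called 0 members against 0.0821% of all rows, with 2474 rows at an unadjusted p under 0.05, among them DUSP1. Ento+AZD against AZD called 0 members there against 0.0274% of all rows, with 1798 rows and 0 members under 0.05. The same comparison in DG-75 called 0% of all rows, with 1030 rows and 2 members, DUSP1 and DUSP4, at an unadjusted p under 0.05.

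A departure of the Ento+AZD change from the Ento and AZD changes added together was called by limma for 0% of rows in either line. In DG-75 DUSP4 departed by 0.61 (unadjusted p = 0.0248) and DUSP1 by 0.50 (unadjusted p = 0.0393), both with an adjusted p of 1.00, among 672 rows at an unadjusted p under 0.05. In SU-DHL-4 no member reached an unadjusted p under 0.05 against 1276 rows. Over the 9 members the median change was -0.31 under AZD and -0.17 under Ento+AZD in SU-DHL-4, where the medians of all rows were -0.08 and -0.08. In DG-75 it was -0.03 and -0.09, beside -0.06 and -0.07 over all rows.

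Other genes of the MAP kinase pathways were read from lists for comparison. Of 15 other dual-specificity phosphatases none was called in any comparison, with 2 at an unadjusted p under 0.05 under Ento+AZD in each line, where 14% of all rows in SU-DHL-4 against 16% in DG-75 passed that limit, and the widest change was that of DUSP3 (-0.83, adjusted p = 0.138 in SU-DHL-4 and -0.80, adjusted p = 0.0947 in DG-75). Of 19 transcripts known to respond to ERK none was called either. Among them EGR2, EGR3, FOSB, ETV4, ETV5, CCND1, EPHA2, EPHA4, SPRY2 and SPRY4 lay below the median of all rows, down to 2.21 for ETV5. A fall of such low rows could be missed. In SU-DHL-4, 6 of the 19 had an unadjusted p under 0.05 under Ento+AZD, beside 14% of all rows, and these 6 were lower, among them JUNB (-0.71, adjusted p = 0.0225, under the fold minimum) and EGR1 (-0.71, adjusted p = 0.225). In DG-75 IER5 changed by 0.65 (adjusted p = 0.123). The list median was -0.10 in SU-DHL-4 against 0.05 in DG-75, beside -0.08 and -0.07 over all rows.

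In the untreated lines 7.2% of all rows were called, and the lists are read beside that share. Of 20 MAP kinase cascade kinases 2 were called, a share near that of all rows. MAPK10, a JNK isoform known mainly from the brain, stood at 9.72 in SU-DHL-4 against 2.77 in DG-75. MAPK13, a p38 isoform, was lower in SU-DHL-4 (difference -1.12). The 2 other JNK genes, named after their values were seen, differed in the opposite direction to MAPK10 and under the fold minimum, MAPK8 by -0.85 (adjusted p = 0.0035) and MAPK9 by -0.68 (adjusted p = 0.0264). At an unadjusted p under 0.05, 8 of the 20 kinases were lower and 3 higher in SU-DHL-4, beside 27.6% of all rows in either direction.

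Of 12 other inhibitors of ERK signalling 1 was called, SPRED1, higher in SU-DHL-4 by 1.08, again a share near that of all rows. Of 9 links from the B-cell receptor to RAS 4 were called and higher in SU-DHL-4. These were RASGRP1 (3.07), RASGRP3 (2.31), SOS1 (1.23) and PRKCB, which stood at 7.93 against 2.96 in DG-75. The DG-75 levels of MAPK10 and PRKCB lay within the range of the T-cell markers, 1.44 to 4.29 over the group means, so that no size is read from their differences. Under the drugs 1 gene of these 3 lists was called, RASGRP1, which fell under Ento+AZD in DG-75 by 1.15 (adjusted p = 0.0348), where 0.833% of all rows were called. Its change under AZD alone in DG-75 was -1.28 (adjusted p = 0.056), and in SU-DHL-4 it was -0.62 under AZD (adjusted p = 0.103) and -0.65 under Ento+AZD (adjusted p = 0.0296, under the fold minimum).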

How the data were processed

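Levels were read from 1 table of log2 values for 24 Clariom D arrays. The authors' methods state that limma was used for RMA and that affycoretools assigned probes to genes through clariomhumantranscriptcluster.db. Their versions and the genome build are not given in the sources used here, and the deposited log2 values carry no detection call. RMA equalizes the arrays, so that a shift common to most genes would not be seen. The labels gave each array its group and replicate number. The members and gene lists were chosen with earlier results of these data known.

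All 25575 rows were fitted with limma 3.58.1 in R 4.3.3 (lmFit, contrasts.fit, eBayes), per line with the replicate number as a block, since the study's methods name a batch term without saying what it was. Line differences used all 24 arrays, with the number nested in line for responses and without a block under DMSO. P-values were adjusted over all rows by the Benjamini-Hochberg method. Where the block was used, they measure the spread left after differences between the numbers are removed, pooled over the groups. Under DMSO, without a block, they measure the spread between the 3 cultures of a group, pooled over the groups. The calculations were tested on simulated data. One gene of the marker lists is not reported here. All 9 members were named, and from each list the called genes or, where none was called, up to 3 with the widest Ento+AZD change. Also named were the 3 rows most like each of the 3 members whose group means varied most after each line was centred on its own mean. Alternatives were fits without the block, over all 24 arrays or over 2 groups, omission of low rows, other scalings, a robust prior variance, no fold minimum, and omission of arrays. The F test on the replicate number was added after the data were seen.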

Additional observations from a re-analysis of the deposited data

Results flagged for a closer look

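The response of DUSP1 to Ento+AZD differed between the lines by a test of the difference itself. The change in SU-DHL-4 less that in DG-75 was -1.74 on the log2 scale (adjusted p = 0.0126 in limma), with the 3 SU-DHL-4 numbers at -0.70, -1.40 and -1.09 and the 3 DG-75 numbers at 0.91, 0.30 and 0.81. All 3 numbers moved one way in each line. In SU-DHL-4 the level of DUSP1 also differed between the replicate numbers (adjusted p = 0.00158). The call ended without the replicate number in the model (-1.74, SE 0.738, adjusted p = 0.856) and in each fit without 1 number (-1.80 to -1.65, adjusted p of 0.051 to 0.395). Groups of 3 arrays were not searched for outlying arrays.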

How the results depend on the processing

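Without the replicate block the count of members called went from 1 to 0 under AZD in SU-DHL-4, under Ento+AZD in SU-DHL-4 and for the line difference under Ento+AZD, in each case for DUSP1, and no other call of a member changed. It also went to 0 in SU-DHL-4 after quantile normalization and after subtraction of array medians under AZD and under Ento+AZD, and under AZD in a fit of the 2 groups compared. It went from 0 to 1 for DUSP1 with no fold minimum under Ento+AZD against DMSO and against Ento in DG-75, and with a robust prior variance that follows the level for the line difference under AZD. It was 2 in place of 1 in a fit of the 6 DMSO arrays. With arrays left out the counts lay between 0 and 1 for AZD and for Ento+AZD in SU-DHL-4 and for the line difference under Ento+AZD, and between 1 and 2 under DMSO. The cause was not tested. Same-numbered arrays deviated together in part. Of 18 correlations between such SU-DHL-4 arrays (-0.11 to 0.39), 12 were over 0.1. For the DG-75 arrays (-0.35 to 0.34), 7 of 18 were. Among 12 SU-DHL-4 arrays, 9 correlated best with their own number, and among 12 DG-75 arrays 8 did. No count for numbers assigned at random was computed, so whether a number marks matched cultures was not tested. The number stayed in the model in place of the batch term that the study's methods name but do not describe. The 3 drug-related DUSP1 calls rest on it. The F test called 98 rows by number in SU-DHL-4, against 0 in DG-75. The SU-DHL-4 count was 11 to 234 with 1 array left out and 156 to 587 in the other settings. The DG-75 count was not repeated in other settings. Of 3583 member values under an alternative, 3545 stayed on their side of the threshold, 33 lost a call, 5 gained one and 0 changed sign with a p under 0.05. Of those that stayed, 243 changed sign with no p under 0.05 on either side. The setting with each other row of a symbol was not run, as each member has 1 row, and departure from additivity has no fit of 2 groups. The number of arrays limits what can be called, and levels near the floor of the array scale cannot be read as absent.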
